A study of Mus musculus with 2 samples.

Results

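The MHC class II genes H2-Aa, H2-Ab1, H2-Eb1, H2-DMa, H2-DMb1, Cd74 and Ciita were examined in tumour cells with no UMI of 3 macrophage genes. They are 7 of the 28692 genes in both matrices, chosen by symbol, and all 7 were found. Cells were kept at 5000 or more unique molecular identifiers (UMIs, each standing for 1 captured RNA molecule) with at most 10% of them mitochondrial. A kept cell with no UMI of C1qa, Tyrobp or Fcer1g, 3 genes of macrophages, is called macrophage-gene-negative, and a kept cell with at least 1 is called macrophage-gene-positive. The negative cells numbered 3275 of 3356 kept cells in the aPD-1 library and 2071 of 2198 in the IgG library.

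MC38 is a mouse colon carcinoma line. Its tumours, with strain C57BL/6 albino in the labels of both libraries, were broken into spheroids of 40 to 100 µm that keep cells of the tumour other than cancer cells, and grown in 2.8 mg/mL collagen in a microfluidic chip. The aPD-1 group received the PD-1 antibody clone RMP1-14 at 10 µg/mL and the IgG group the control antibody clone 2A3 at 10 µg/mL, and cells of both were taken on day 6. Tumour cells were then sorted, by markers that the labels do not name, and 1 library per group was made with a 3′ kit, so no comparison below has a replicate check and none has a test. The series describes itself as a profile of the MC38 cells left after PD-1 blockade, and the comparison here asks how their class II transcripts stand against those of control cells.

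MHC class II molecules present peptides from the endocytic pathway to CD4+ T cells. Dendritic cells, macrophages and B cells are the usual carriers, while many other cells can make class II when interferon-gamma induces the coactivator CIITA, encoded by Ciita. CIITA acts on promoters that share an X box, bound by the RFX complex, and a Y box, bound by NF-Y. H2-Aa and H2-Ab1 encode the alpha and beta chains of I-A, and H2-Eb1 encodes the beta chain of I-E. Cd74 encodes the invariant chain, which guards the peptide groove, and H2-DMa and H2-DMb1 encode the H2-M dimer, which exchanges its remnant for other peptides.

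In GENCODE M21 on GRCm38, 5 of the 7 genes lie on chromosome 17: H2-Aa at chr17:34282744-34287823 on the minus strand, and on the plus strand H2-Ab1 at chr17:34257689-34269419, H2-Eb1 at chr17:34305867-34316674, H2-DMa at chr17:34119541-34139101 and H2-DMb1 at chr17:34153072-34160230. Ciita lies at chr16:10480059-10528418 on the plus strand, and the Cd74 locus is on another chromosome and not shown. All 7 are annotated as protein coding. H2-Eb1 overlaps Gm20513, H2-DMa overlaps Brd2 and Ciita overlaps Dexi, each on the other strand, and no label or header says how the counting used strand, so these 3 genes are uncertain to that extent. H2-DMb1 shares much of its sequence with H2-DMb2 next to it, and reads of the pair may have been split or lost.

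RefSeq promoter windows of GRCm38.p6, 250 bases before to 50 after a gene's start, were at hand for 4 of the 7 genes. The 150 bases just before the start of H2-Aa (chr17:34287824-34287973, minus strand) and H2-Eb1 (chr17:34305717-34305866, plus strand) are shown because they hold the letters by which class II promoters are known. Capitals mark matches to the X-box letters CTNGNAAC and then to the Y-box letters TGATTGG, both read 5′ to 3′ along the gene.
H2-Aa: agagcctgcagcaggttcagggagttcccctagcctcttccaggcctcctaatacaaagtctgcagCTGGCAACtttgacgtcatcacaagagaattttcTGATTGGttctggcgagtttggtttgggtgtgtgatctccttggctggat
H2-Eb1: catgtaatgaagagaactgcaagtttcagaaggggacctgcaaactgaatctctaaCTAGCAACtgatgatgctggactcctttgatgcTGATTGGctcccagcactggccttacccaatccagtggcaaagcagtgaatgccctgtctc
The X letters began 84 bases before the start in H2-Aa and 94 in H2-Eb1, and the Y letters 50 and 61 bases before it. H2-DMb1 held CTAGTAAC 97 bases and TGATTGG 63 bases before its RefSeq start, which lies 119 bases downstream of the GENCODE start of that gene. The 2 H2-DMa windows lie at RefSeq starts 3291 and 5977 bases downstream of the GENCODE start of that gene, so they do not cover that start, and neither held either set of letters on either strand. Among all 32851 windows of that length, the X letters stood in 13.2% and the Y letters in 7.82% on either strand, and X followed by Y on 1 strand within 60 bases in 35 windows (0.107%), those of H2-Aa, H2-Eb1, H2-DMb1 and H2-Ob among them. The 2 sets of letters do not overlap each other in these windows, and they were chosen with the sequences of these promoters in view, so the matches are a description.

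The kept negative cells held a median of 16565 UMIs in the aPD-1 library and 20518 in the IgG library, and 8 barcodes were shared by kept cells of both. Of 11 epithelial genes, 7 in aPD-1 and 6 in IgG had no UMI in negative cells and the list summed to 0.234 and 0.564 CPM, UMIs scaled to a total of 1000000, while 8 fibroblast genes summed to 699 and 1097 CPM. The defining markers of a colon epithelium are thus near 0, and "tumour cell" rests on the sort. Of the negative cells, 22.9% in aPD-1 and 25.4% in IgG held a UMI of the other macrophage genes. Of these 978 UMIs in aPD-1, Cd14 had 426, Laptm5 230, Cd68 132 and Fcgr3 68. The highest of the remaining genes of that list was Lyz2, with 37. Endothelial genes summed to 20.8 CPM in aPD-1 cells and 54.9 CPM in IgG cells, other macrophage genes to 16.3 and 16.1, dendritic cell genes to 15.6 and 13.8, B cell genes to 15.2 and 20.2, and T and NK cell genes to 1.47 and 1.41 CPM. Fewer cells of a type and less RNA per cell cannot be told apart in such sums. For the endothelial genes, the cells with 5 or more of their UMIs were 5 in aPD-1, with 297 of 1245 such UMIs. In IgG they were 22, with 1879 of 2530.

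Class II transcripts were present in the macrophage-gene-negative cells of both libraries at levels that differed little. The 7 genes summed to 162 CPM in aPD-1 cells (9707 UMIs) and 156 CPM in IgG cells (7197 UMIs), a ratio of 1.04 with a 95% interval of 1.01 to 1.07. The direction of this small difference turned with the settings: the log2 ratio of 0.05 became -0.010 with each cell weighted equally, -0.029 without cells with an endothelial UMI and -0.093 with cells kept whatever their macrophage genes. All intervals here are exact and cover counting error only. Because the UMIs of a class II gene fall together in few cells, as shown further on, the intervals are too narrow even for the libraries themselves.

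The genes of the I-A chains differed little between the libraries. H2-Aa had 25.3 CPM (1518 UMIs) in aPD-1 cells and 23.6 CPM (1089 UMIs) in IgG cells, a ratio of 1.07 (0.991 to 1.16). H2-Ab1 had 13 CPM (780 UMIs) in aPD-1 cells and 15.5 CPM (713 UMIs) in IgG cells, a ratio of 0.842 (0.759 to 0.933). For H2-Aa the interval includes 1, while H2-Ab1 was slightly lower in the aPD-1 library under all 16 settings tried.

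H2-Eb1, the I-E beta chain, had the highest ratio of the 6 genes above 10 CPM, at 15.3 CPM (920 UMIs) in aPD-1 cells and 11.9 CPM (547 UMIs) in IgG cells (1.29, 1.16 to 1.44). Cd74 had 49.1 CPM (2941 UMIs) in aPD-1 cells and 41.6 CPM (1916 UMIs) in IgG cells (1.18, 1.11 to 1.25), and this difference was gone (log2 ratio -0.000298) with cells kept whatever their macrophage genes. In that setting the difference of H2-Eb1 was nearly gone too, at 15.5 CPM in aPD-1 cells and 14.9 CPM in IgG cells (log2 ratio 0.056). Both H2-M genes were marginally lower in the aPD-1 library. H2-DMa had 24.9 CPM (1494 UMIs) in aPD-1 cells and 27.2 CPM (1255 UMIs) in IgG cells (0.916, 0.849 to 0.988). H2-DMb1 had 33.7 CPM (2020 UMIs) in aPD-1 cells and 36.1 CPM (1665 UMIs) in IgG cells (0.933, 0.874 to 0.997), and both ratios turned to just above 1 under a scaling that trims extreme genes.

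Ciita was close to the limit of detection. It had 34 UMIs in 3275 aPD-1 cells (0.567 CPM) and 12 UMIs in 2071 IgG cells (0.260 CPM), a ratio of 2.18 with an interval of 1.10 to 4.62. At such counts a ratio says little: of the 4086 genes between 1 and 10 CPM, all of them above Ciita, 13.7% were past 1.5-fold. Of the 6 class II genes of at least 10 CPM, 0 were past 1.5-fold in either direction, against 3.73% of the 6968 genes at that level (0.545% higher and 3.19% lower in aPD-1). The median log2 ratio was 0.00 over the 6 class II genes and -0.10 over all genes of that level, on the scale of log2(CPM + 1).

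**Figure D1:**
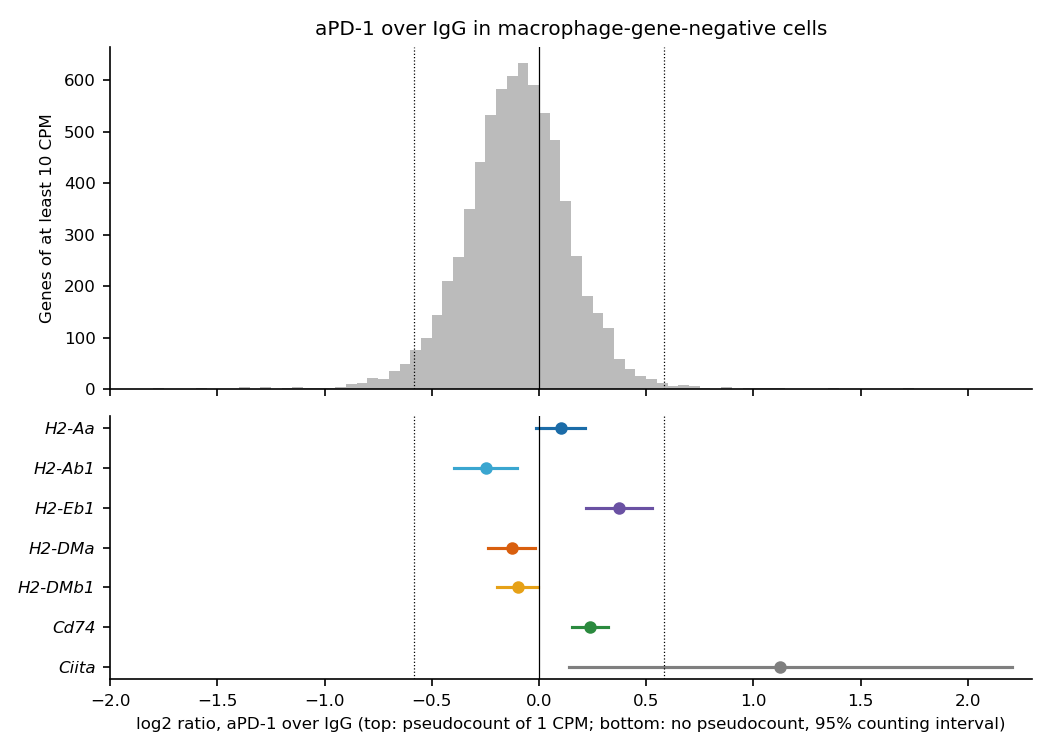
The upper panel counts genes of at least 10 CPM by their log2 ratio of aPD-1 over IgG in macrophage-gene-negative cells, with a pseudocount of 1 CPM, and the lower panel gives the ratio of each class II gene, with no pseudocount, as a point with its 95% counting interval. Dotted lines stand at 1.5-fold. The points of H2-Eb1 and Cd74 lie right of 0 and that of H2-Ab1 left of it, all inside the dotted lines, while Ciita has an interval from 1.10-fold to 4.62-fold.

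The share of cells in which a class II UMI was seen was also similar. With each cell thinned to 5000 UMIs, 36.2% of aPD-1 cells (34.6 to 37.9) and 36.9% of IgG cells (34.8 to 39.0) held at least 1 UMI of the 7 genes. Unthinned, the shares were 62.5% of aPD-1 cells and 69.7% of IgG cells, in cells of unequal depth. Per gene in thinned cells, H2-Aa was seen in 7.63% of aPD-1 cells and 6.90% of IgG cells, H2-Ab1 in 5.16% and 5.07%, and H2-Eb1 in 6.02% and 4.54%. H2-DMa was seen in 11.0% of aPD-1 cells and 12.7% of IgG cells, H2-DMb1 in 15.1% and 17.0%, Cd74 in 13.2% and 11.3%, and Ciita in 0.275% and 0.0966%.

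Free RNA could place class II UMIs in cells that do not make them, and the aPD-1 matrix gives its makeup through 515790 barcodes of 1 to 99 UMIs. The IgG matrix holds 4351 barcodes, and its lowest barcode has 500 UMIs, so the same was not measured there. Of 13 other macrophage genes found in free RNA, 9 had a ratio of aPD-1 negative cells over free RNA of at most 0.0353, such as Lyz2 with 0.617 CPM in cells and 42.3 CPM in free RNA (0.0146). The other 4 had ratios between 0.160 (Fcgr3) and 0.478 (Cd14), with Cd68 at 0.274 and Laptm5 at 0.285. The genes of the chains and Cd74 lay in the range of those 4, with H2-Aa at 25.3 CPM in cells and 69.0 CPM in free RNA (0.367), Cd74 at 49.1 and 123 CPM (0.398), H2-Eb1 at 0.284 of its free RNA level and H2-Ab1 at 0.174. The H2-M genes were nearly as high in cells as in free RNA, with H2-DMb1 at 33.7 and 34.9 CPM (0.964) and H2-DMa at 24.9 and 29.8 CPM (0.838), much as B2m, the light chain of class I, at 1.05.

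The makeup of the class II UMIs also differed by source. H2-DMb1 gave 20.8% of the 7 genes' UMIs in aPD-1 negative cells and 23.1% in IgG negative cells, 2.69% and 2.51% in the macrophage-gene-rich barcodes of the same libraries, and 9.04% in aPD-1 free RNA. The macrophage-gene-rich barcodes are those of 1000 to under 5000 UMIs with at least 3 UMIs of the 3 macrophage genes, 4 in aPD-1 and 123 in IgG, a set chosen after the data were seen. The aPD-1 shares rest on 260 class II UMIs, with H2-DMb1 seen in 2 of the 4 barcodes and H2-DMa in 1. H2-DMa gave 15.4% and 17.4% in negative cells of aPD-1 and IgG, 2.31% and 2.17% in the macrophage-gene-rich barcodes, and 7.70% in free RNA. H2-Ab1 went the other way, with 8.04% and 9.91% in negative cells, 26.9% and 24.8% in macrophage-gene-rich barcodes and 19.3% in free RNA. Cd74 (30.3% in aPD-1 negative cells, 31.9% in free RNA) and H2-Aa (15.6%, 17.8%) took similar shares in both. The part of free RNA in the class II UMIs of negative cells was not tested.

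**Figure D2:**
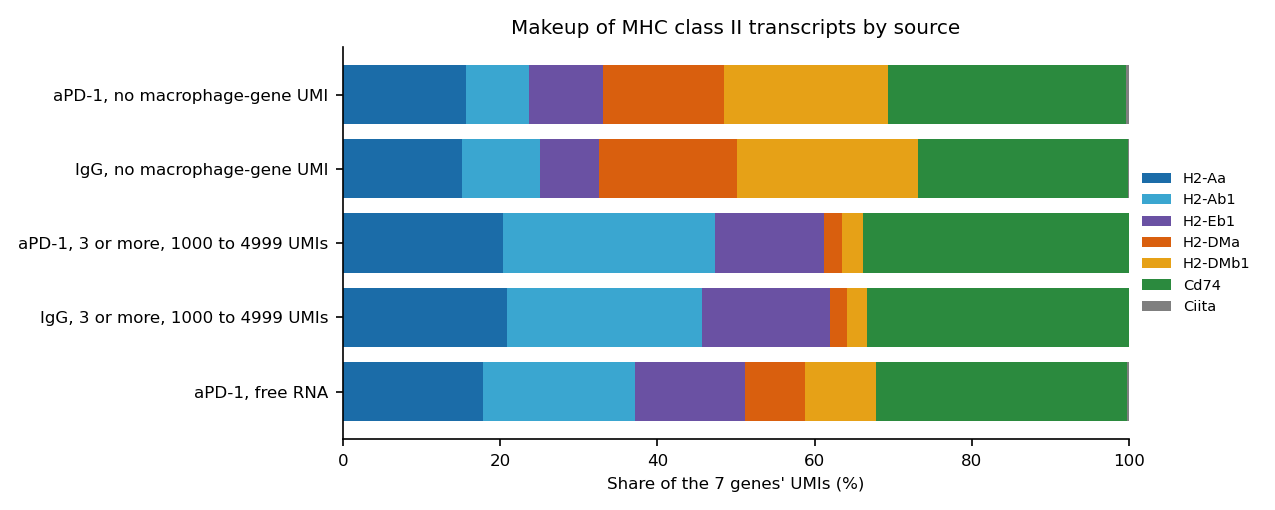
Each bar splits the UMIs of the 7 class II genes by gene, in percent, for macrophage-gene-negative cells, for barcodes of 1000 to under 5000 UMIs with 3 or more macrophage-gene UMIs, and for free RNA. H2-DMa and H2-DMb1 together take more room in the 2 upper bars (15.4% and 20.8% in aPD-1) than in the others, and H2-Ab1 takes less.

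Within the negative cells the class II UMIs were unevenly spread. The 10% of cells with the most Cd74 held 80.2% of its UMIs in aPD-1 and 80.3% in IgG, against a median of 37.9% and 38.1% over genes of like level (a CPM within a factor of 0.8 either way). Of those genes, 0 of 950 in aPD-1 and 3 of 1067 in IgG were as concentrated as Cd74. For H2-Aa that 10% held 87.0% in aPD-1 and 86.6% in IgG, with 1 of 1229 and 7 of 1294 genes of like level as concentrated. H2-Ab1 (93.1% in aPD-1, 87.9% in IgG) and H2-Eb1 (93.0%, 95.8%) were also among the most concentrated genes of their level, with at most 13 genes at or above them in a library.

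The H2-M genes were spread more evenly than the chains and Cd74. For H2-DMa that 10% held 61.8% of UMIs in aPD-1 and 55.5% in IgG, with 3.17% and 5.61% of genes of like level as concentrated. For H2-DMb1 it held 46.6% and 42.9%, close to the medians of 43.1% and 39.4% for its level. The highest cell held 39 Cd74 UMIs in aPD-1 and 42 in IgG, and 774 of 3275 aPD-1 cells and 497 of 2071 IgG cells held at least 1.

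**Figure D3:**
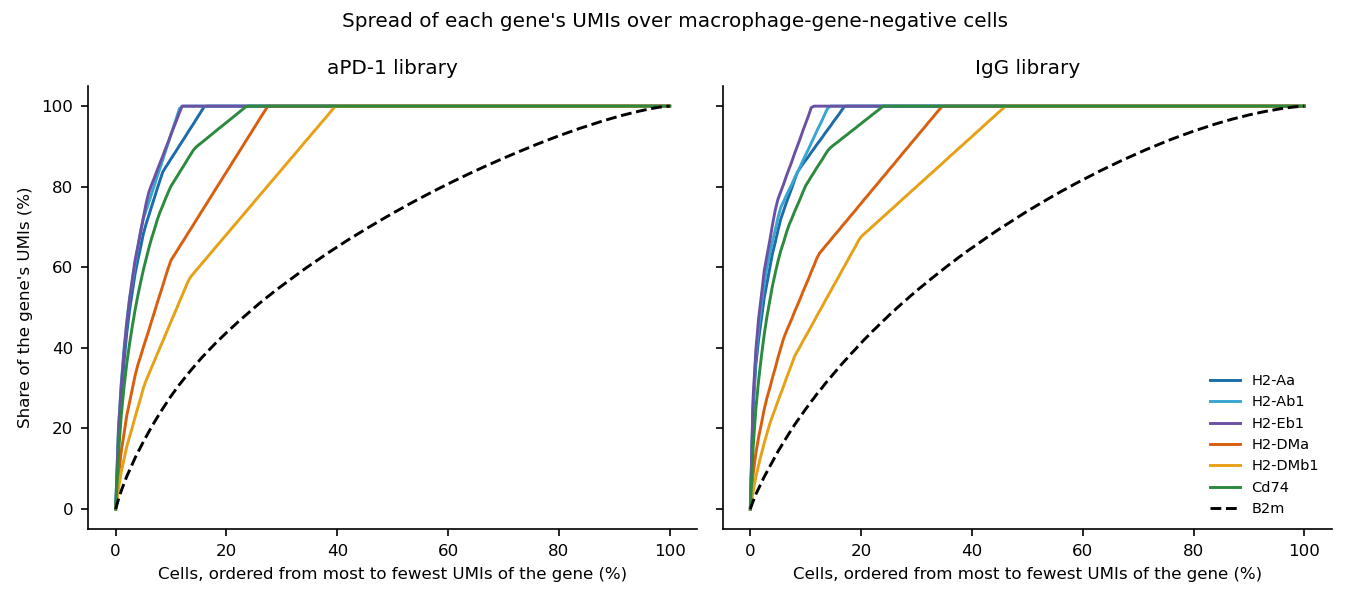
Curves give the share of a gene's UMIs (percent) held by the cells with the most of it (percent of macrophage-gene-negative cells), for 6 class II genes and, dashed, B2m. At 10% of cells the curve of Cd74 stands at 80.2% in aPD-1 and 80.3% in IgG, and that of B2m at 28.0% and 24.8%, a gene far higher in level.

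The genes of the chains and Cd74 were seen more often in cells that held another of them. Among thinned aPD-1 cells with H2-Aa, 53.2% (133 of 250) also held Cd74, against 9.88% of cells without H2-Aa, and in IgG the shares were 50.3% (72 of 143) against 8.45%. H2-Ab1 was seen in 30.8% of aPD-1 cells with H2-Aa against 3.04% of those without, and in 32.9% against 3.01% of IgG cells. H2-Eb1 was seen in 36.0% of aPD-1 cells with H2-Aa and 3.54% without it, and in 28.7% and 2.75% of IgG cells. The H2-M genes followed less closely, with H2-DMb1 in 30.8% of aPD-1 cells with H2-Aa and 13.9% without, and in 35.7% and 15.7% of IgG cells.

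A small set of cells carried much of the class II signal. Cells with 5 or more thinned UMIs of H2-Aa, H2-Ab1, H2-Eb1 and Cd74 together, a number chosen after the data were seen, made up 3.05% of aPD-1 cells (100 of 3275, 2.49 to 3.70) and 2.46% of IgG cells (51 of 2071, 1.84 to 3.23). They held 44.0% of those UMIs in aPD-1 and 44.6% in IgG. Of the cells near the threshold, 27 aPD-1 and 14 IgG cells had exactly 5, and 50 and 17 cells had 4. At a threshold of 3 the shares were 6.72% and 5.36%, and at 10 they were 0.611% and 0.676%. Their median depth was 15703 UMIs in aPD-1 and 19447 in IgG, against 16593 and 20574.5 in the remaining cells, so they were no deeper.

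Genes outside the choice also stood higher in the cells high in class II. No share of all genes is given beside these folds, so how unusual they are cannot be said. Cxcl9 and Gbp2 were named after their values were seen. H2-DMa had 116 CPM in those aPD-1 cells and 22.1 CPM in the rest (5.26-fold), and 169 and 24.1 CPM in IgG (7.03-fold). H2-DMb1 was 3.48-fold higher in aPD-1 and 2.91-fold in IgG. Cxcl9, a chemokine gene induced by interferon-gamma, had 168 CPM against 58.1 CPM in the remaining aPD-1 cells and 423 against 90.8 CPM in IgG. Gbp2, an interferon-induced GTPase, had 365 against 176 CPM in aPD-1 and 346 against 187 CPM in IgG. Over all 11 interferon-gamma response genes the sum was 1.58-fold higher in aPD-1 and 1.63-fold in IgG, and over 12 class I and peptide-loading genes 1.33-fold and 1.42-fold.

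Markers of other cell types were read in the same cells. The other macrophage genes summed to 22.8 CPM in the high cells and 16.1 CPM in the rest of aPD-1, and to 20.2 and 16.0 CPM in IgG. Dendritic cell genes summed to 18.4 and 15.5 CPM in aPD-1 and 11.1 and 13.9 CPM in IgG, and B cell genes to 16.7 and 15.2 CPM in aPD-1 and 14.1 and 20.3 CPM in IgG. Endothelial genes summed to 21.7 and 20.7 CPM in aPD-1, but to 257 and 50.4 CPM in IgG. Cells with 5 or more endothelial UMIs were 5 in aPD-1 and 22 in IgG, of which 0 and 2 were among the high cells, and they held 0.0515% and 0.723% of the class II UMIs of their library. Without those cells the sum of the 7 genes had a log2 ratio of 0.06 between aPD-1 and IgG, against 0.05 with them. The part of other cell types in the class II levels of the high cells was not tested.

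Class II levels went with interferon-gamma response genes from cell to cell. Cells of both libraries were ordered by their thinned UMIs of 11 such genes (Cxcl9, Cxcl10, guanylate-binding proteins and immunity-related GTPases) and divided into 4 bins at cuts shared by both libraries. H2-Aa had 41.2 CPM in the top and 14.1 CPM in the bottom bin of aPD-1 (2.92-fold), and 38.2 and 8.78 CPM in IgG (4.35-fold). H2-Ab1 differed 4.41-fold in aPD-1 and 5.04-fold in IgG, H2-Eb1 4.03-fold and 3.69-fold, H2-DMa 2.72-fold and 2.39-fold, and Cd74 2.28-fold and 2.62-fold. H2-DMb1 differed least, 39.5 against 26.4 CPM in aPD-1 (1.49-fold) and 43.0 against 30.7 CPM in IgG (1.4-fold). Of the 6 genes, 5 in each library were past 1.5-fold higher, against 6.81% of all genes in aPD-1 and 5.39% in IgG. Ciita had 20 UMIs in the top and 3 in the bottom bin of aPD-1, and 6 and 1 in IgG.

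Ordering by the 12 class I and peptide-loading genes gave differences of similar size. H2-Ab1 had 32.5 CPM in the top and 5.10 CPM in the bottom bin of aPD-1 (6.37-fold), and 27.2 and 4.22 CPM in IgG (6.44-fold). Cd74 had 87.8 and 27.7 CPM in aPD-1 (3.18-fold) and 65.5 and 13.6 CPM in IgG (4.80-fold). All 6 genes were past 1.5-fold higher in both libraries, from 1.74-fold for H2-DMb1 in aPD-1 upwards, but 23.6% of all genes in aPD-1 and 20.8% in IgG were too. A share of cells of 17.9% in aPD-1 and 36.3% in IgG fell into the top class I bin, and the class I list itself summed to 5884 CPM in aPD-1 cells and 7536 CPM in IgG cells.

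Between cells of like class I level, the sum of the 7 class II genes was higher in the aPD-1 library, but not every gene in every bin. The 7 genes summed to 95 CPM in aPD-1 cells and 59.7 CPM in IgG cells in the bottom class I bin (ratio 1.59, 1.44 to 1.76), and to 285 and 236 CPM in the highest (1.21, 1.15 to 1.27). In the bins between, the ratios were 1.28 and 1.19. Cd74 was higher in aPD-1 in each bin, by 2.03, 1.59, 1.34 and 1.34 times from lowest to highest. H2-Ab1 was at 1.21, 1.32, 0.918 and 1.19, and H2-DMb1 at 1.34, 0.945, 1.19 and 0.898. No share of all genes within these bins is given, so these ratios cannot be set against those of other genes. Within bins of the interferon-gamma list, the sum of the 7 genes stood at ratios of 1.10, 0.963, 1.03 and 1.07.

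**Figure D4:**
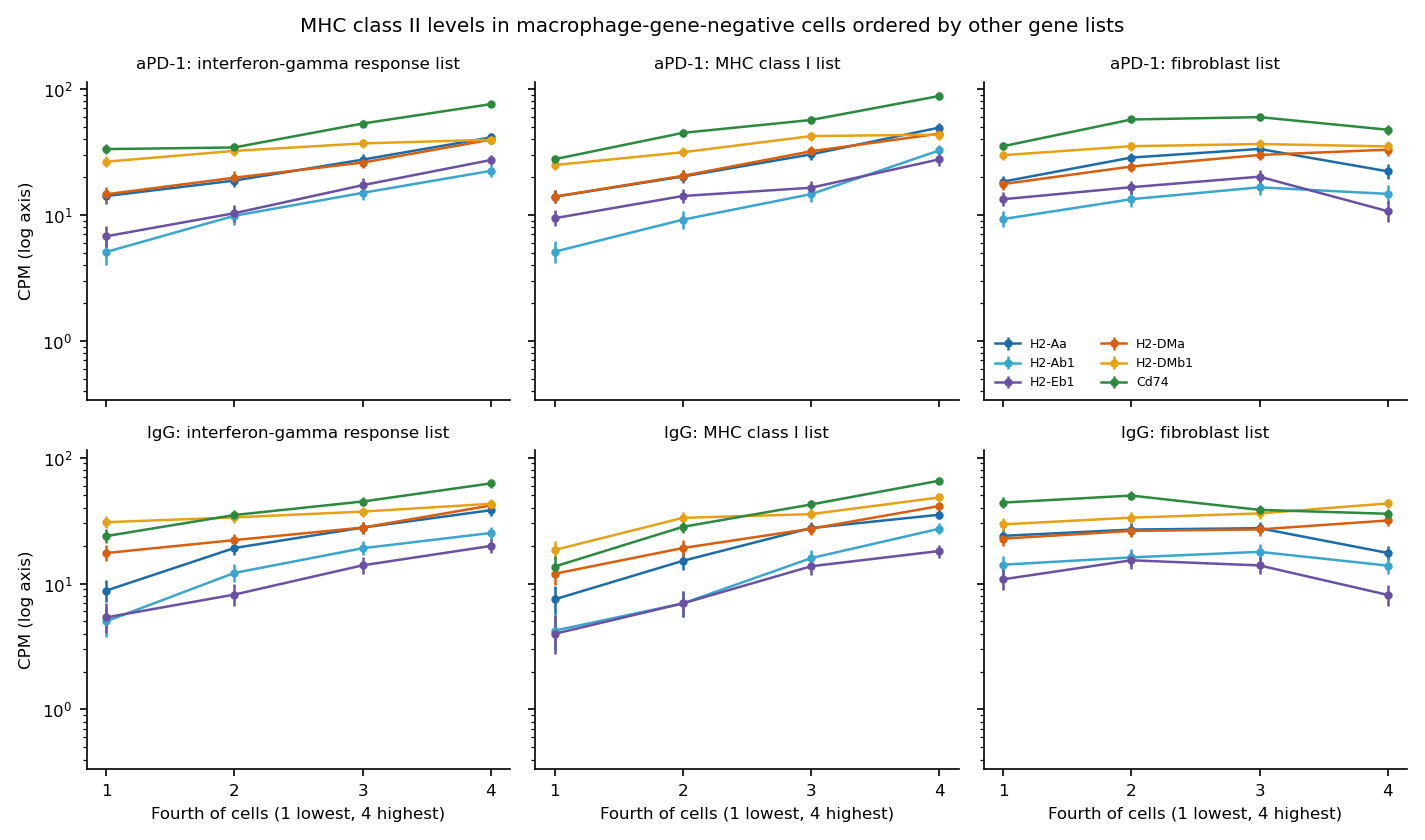
CPM (log axis) of 6 class II genes in 4 bins of macrophage-gene-negative cells, ordered by the summed UMIs of 3 gene lists after thinning, with the aPD-1 library above and the IgG library below and bars for the 95% Poisson interval. The lines climb along the interferon-gamma and class I lists in both libraries (H2-Ab1 by 4.41-fold and 6.37-fold in aPD-1), and are mixed along the fibroblast list.

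Other orderings moved class II less or not alike in both libraries. Along a type I interferon list the 7 genes summed to 197 CPM in the top and 132 CPM in the bottom bin of aPD-1 (1.5-fold), and to 227 and 99.8 CPM in IgG (2.27-fold). Along a hypoxia list the sum was lower in the top bin, 143 against 180 CPM in aPD-1 (0.794-fold) and 120 against 187 CPM in IgG (0.642-fold). Along a list of mitosis genes the sum was at 0.969-fold in aPD-1 and 0.808-fold in IgG. Along UMIs per cell it was at 1.01-fold in aPD-1 and 0.918-fold in IgG.

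Ranked by the smaller of the correlations in the 2 libraries, the 6 genes of at least 10 CPM most like the class II sum were Ifitm3, Cxcl9, Psmb8, H2-D1, AW112010 and H2-K1, among 6716 genes ranked. All correlations were weak, with Pearson r of 0.177 in aPD-1 and 0.162 in IgG for Ifitm3 and 0.133 and 0.164 for Cxcl9, over 3275 and 2071 cells thinned to 1 depth. In sparse counts such values are a description of these cells, which share a library, and no finding.

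The macrophage-gene-positive cells had more class II CPM than the negative ones, and 1 cell in aPD-1 and 2 cells in IgG weighed heavily in this. The positive cells numbered 81 in aPD-1 (2.41% of kept cells) and 127 in IgG (5.78%), and 72 and 114 of them held only 1 UMI of the 3 genes. In thinned cells, a UMI of the 7 genes was seen in 36.2% of negative and 37.0% of positive aPD-1 cells, and in 36.9% and 40.2% of IgG cells. Cd74 was seen in 13.2% of negative and 23.5% of positive aPD-1 cells, and in 11.3% and 21.3% of IgG cells. H2-DMb1 was seen in 15.1% of negative and 8.64% of positive aPD-1 cells (7 of 81, 3.55 to 17.0), an interval that includes 15.1%. Its levels in these cells were alike, at 33.7 CPM in negative and 33.4 CPM in positive cells. The 7 genes summed to 162 CPM in negative and 208 CPM in positive cells of aPD-1 (ratio 0.780, 0.697 to 0.875), and to 156 and 424 CPM in IgG (0.368, 0.347 to 0.390). In IgG, H2-Aa (0.327), H2-Ab1 (0.261), H2-Eb1 (0.209) and Cd74 (0.260) were past 1.5-fold lower in negative cells, against 0.839% of all genes, while H2-DMa was at 0.798 and H2-DMb1 at 0.873. In aPD-1 only H2-Aa was (0.624), against 2.33% of all genes. A single aPD-1 positive cell, with 1 macrophage-gene UMI, held 26 of the 62 H2-Aa UMIs and 66 of the 317 class II UMIs. Without it, H2-Aa was at 1.06 (25.3 CPM in negative and 24.0 CPM in positive cells) and the sum at 0.968 (0.854 to 1.10). That cell was picked for its class II UMIs and no negative cell was left out, not even the highest, with 140 class II UMIs. Leaving it out could thus only raise these ratios.

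Of the IgG positive cells, 6 held 3 or more UMIs of the 3 macrophage genes, and 2 of these held 357 and 284 such UMIs with 531 and 305 class II UMIs. The other 4 held 3 or 4 macrophage-gene UMIs and between 4 and 24 class II UMIs. Without the 2 cells the IgG ratio of negative over positive cells was 0.895 (0.822 to 0.977), in place of 0.368. In aPD-1 no kept cell held more than 4 such UMIs. In positive cells with 1 macrophage-gene UMI the 7 genes summed to 208 CPM in aPD-1 cells, that cell included, and 136 CPM in IgG cells, beside 162 and 156 CPM in negative cells.

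Further barcodes with macrophage genes and high class II lay under the floor of 5000 UMIs. The 4 macrophage-gene-rich barcodes of aPD-1 and the 123 of IgG held 34895 and 20467 CPM of the 7 genes, with Cd74 at 11810 and 6820 CPM. The aPD-1 values rest on 7451 UMIs in all. There H2-Aa, H2-Ab1, H2-Eb1 and Cd74 were each seen in 2 of the 4 barcodes and H2-DMa in 1, and 1 barcode held 10 UMIs of T and NK cell genes. H2-Aa had 7113 CPM in the aPD-1 and 4268 CPM in the IgG barcodes, while H2-DMb1 had 939 and 514 CPM. All 6 genes were thus far lower in negative cells than in these barcodes, by the smallest factor for the H2-M genes. The median depth of the barcodes was 1240 UMIs in aPD-1 and 1261 in IgG.

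**Figure D5:**
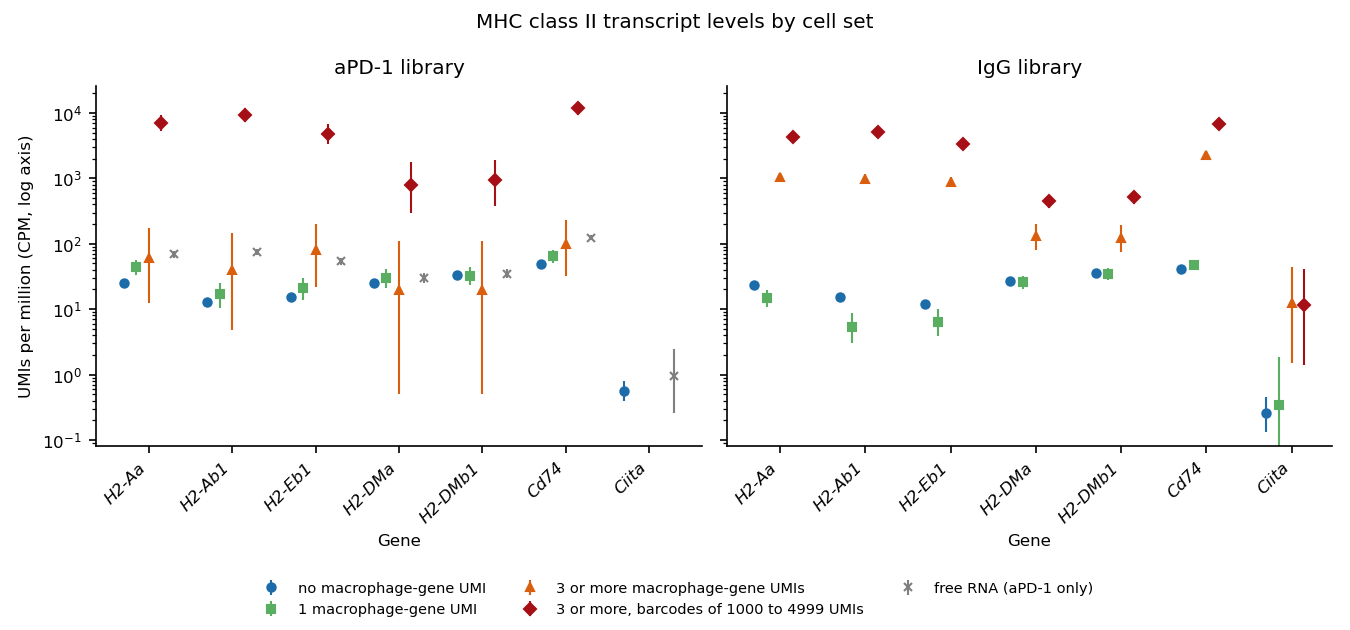
CPM (log axis) of each class II gene by set of cells, with 95% Poisson intervals, in the aPD-1 library on the left and the IgG library on the right; sets with no UMI of a gene have no point. For all genes but Ciita, macrophage-gene-rich barcodes (diamonds) stand highest in both libraries. Cd74 stands there at 11810 CPM (aPD-1) and 6820 CPM (IgG), and in macrophage-gene-negative cells (circles) at 49.1 and 41.6 CPM. The aPD-1 diamonds come from 4 barcodes, with Cd74 seen in 2 of them.

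The factors that act with or on CIITA were present in the negative cells of both libraries. Of 9 regulators, 7 reached a mean of 10 CPM over the libraries and 0 of them were past 1.5-fold, against 3.73% of all genes of that level, so the count says little of these 7. Irf1, a transcription factor upstream of Ciita, had 111 CPM in aPD-1 cells and 126 CPM in IgG cells. Of 6 genes of the interferon-gamma receptor and its feedback, 5 reached a mean of 10 CPM. Among them Socs1, a feedback inhibitor, was higher in aPD-1 (78.7 CPM) than in IgG (48.1 CPM), at 1.64-fold. Ifngr1, the ligand-binding receptor chain, was lower in aPD-1 (32.7 CPM) than in IgG (50.7 CPM), at 0.645. Of all genes of that level, 0.545% were past 1.5-fold higher and 3.19% past it lower. Other scalings were tried for the 7 class II genes only, so how these 2 ratios depend on scaling was not tested. Jak1, a kinase of the receptor, had 120 CPM in aPD-1 cells and 130 CPM in IgG cells, and Socs3 had 80.9 and 116 CPM.

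Of 8 genes for peptide processing and class II turnover, 6 reached a mean of 10 CPM and 2 were past 1.5-fold lower in aPD-1, against 3.19% of all genes of that level. These were Lgmn, an endosomal protease, with 12.7 CPM in aPD-1 cells and 21.1 CPM in IgG cells (0.604), and Ifi30, a thiol reductase induced by interferon-gamma, with 67.2 and 101 CPM (0.666). Ifi30 thus lies at the cut itself. A scaling that trims extreme genes (TMM factors of 0.951 for aPD-1 and 1.05 for IgG) would raise both ratios. Whether either gene stays past 1.5-fold under it was not tested. The cathepsins Ctsl (205 CPM in aPD-1, 263 CPM in IgG) and Ctsb (110 and 129 CPM) were the highest of the list. Costimulatory genes were low: 0 of 4 genes reached a mean of 10 CPM over the libraries, with Cd40 at 8.38 CPM in aPD-1 cells and 10.7 CPM in IgG cells and Icosl at 0.300 and 0.304 CPM. Cd80 had 1 UMI in aPD-1 and 5 in IgG, and Cd86 had 1 and 0.

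Of the other class II loci, H2-Oa, a chain of the H2-O inhibitor of H2-M, had 2.29 CPM in aPD-1 cells and 2.26 CPM in IgG cells. H2-DMb2 had 6 and 4 UMIs. H2-Eb2 had 0 UMIs in both libraries and H2-Ob had 0 in aPD-1 and 1 in IgG, which allow levels of up to 0.0501 CPM in aPD-1 for a gene with a count of 0 (3 counts of the total).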

How the data were processed

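The authors deposited raw UMI counts per gene and barcode for 1 aPD-1 and 1 IgG library, as Cell Ranger 3.0.2 matrices, per the file headers. Per the submitters' processing notes, Seurat 2.1.0 and the build mm10 were used, while no source here gives the annotation or the use of strand. Totals were 68385785 UMIs in the aPD-1 and 52720076 in the IgG matrix. Counts were summed per cell set and scaled to a total of 1000000 (CPM) (Python 3.11.15, scipy 1.17.1), and ratios of sums have exact conditional binomial intervals, levels exact Poisson and shares Clopper-Pearson intervals at 95%. Cells were thinned to 5000 UMIs for shares, bins and correlations. A gene counts as past the fold at a mean of 10 CPM or more and a ratio past 1.5-fold either way. This rule was tried on simulated Poisson counts. These hold neither the clumping of UMIs in few cells nor a spread between libraries, so the trial cannot say how the rule does on these data. TMM factors came from edgeR 4.0.16. No doublet caller was run. Itgam and Gbp6, whose symbols stand on more than 1 row, were not used. The symbols H2-Ea and H2-Ea-ps are not in the matrices, so H2-Eb1 was read with no gene of an I-E alpha chain beside it. The members and gene lists were chosen with earlier results of these data known. All 7 members are named. Of the lists of other class II loci, regulators, processing, interferon-gamma receptor and costimulation, genes past the fold and up to 2 with the highest CPM are named, with others added after their values were seen (Cd80, Cd86, H2-Eb2, H2-Ob; Cxcl9, Gbp2, Lyz2, Fcgr3, Cd14, Cd68, Laptm5 and B2m outside these lists). A gene that this rule names is not reported here.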

Additional observations from a re-analysis of the deposited data

Results flagged for a closer look

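Along the fibroblast list, H2-Aa and Cd74 went opposite ways in the libraries. H2-Aa was at 1.21 in aPD-1 and 0.732 in IgG in the top over the bottom of 4 bins, and Cd74 at 1.35 and 0.815. Along the S phase list, Cd74 was at 1.28 in aPD-1 and 0.598 in IgG, and the sum of the 7 genes at 1.18 and 0.753. Each library is a single sample, so these differences were not tested.

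Class II signal was also found in barcodes outside the comparisons of kept cells. It came to 387 CPM in the free RNA of aPD-1, and to 34895 CPM (aPD-1) and 20467 CPM (IgG) in the barcodes of 1000 to under 5000 UMIs with 3 or more macrophage-gene UMIs.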

How the results depend on the processing

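No paired analysis was possible because each group has 1 library. The log2 ratio of the summed class II genes between aPD-1 and IgG negative cells was 0.05, and settings moved it to 0.0024 (no UMI of the other macrophage genes), 0.15 (centred on the median gene), 0.20 (TMM) and 0.14 (total without ribosomal and mitochondrial genes). It turned to -0.093 with cells kept whatever their macrophage genes, and was 0.05 again there without the 2 IgG cells of over 100 macrophage-gene UMIs, a setting chosen after seeing the data. It turned to -0.010 with each cell weighted equally and to -0.029 without cells with an endothelial UMI. Cd74 turned to -0.000298 with cells kept whatever their macrophage genes, H2-DMb1 to 0.0020 when centred, 0.045 with TMM and 0.014 without the 25% of cells highest in fibroblast genes, and H2-DMa to 0.018 with TMM. H2-Aa (0.10) was below 0 in 4 of 16 settings, down to -0.06. Over 16 settings H2-Eb1 ran between 0.06, with cells kept whatever their macrophage genes, and 0.52. H2-Ab1 ran between -0.46 and -0.10. The count of members past 1.5-fold was 0 in every setting with the level filter. Without that filter 21.3% of 15701 genes and 1 of the 7 members, Ciita, were past it.

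The ratio of negative over positive cells in aPD-1 (0.780) moved to 0.445 with a floor of 2000 UMIs, 0.663 without cells with an endothelial UMI, 0.508 where positive means 3 or more UMIs and 0.426 with positive cells from 1000 UMIs. In IgG (0.368) the same settings gave 0.318, 1.23, 0.0287 and 0.110, where 1.23 is a turn of direction. That setting leaves out 45 of the 127 IgG positive cells, the 2 with most macrophage-gene UMIs among them, and the cause was not tested. It was 0.346 with cells weighted equally, 0.485 without the 1% highest in class II, 0.307 without the 25% of cells highest in fibroblast genes and 0.895 without the 2 cells. Without the 1 positive cell of most class II UMIs, also chosen after seeing the data, the ratio was 0.968 in aPD-1 and 0.587 in IgG. No negative cell was left out in that setting, so the ratio could only rise. The share of cells with a class II UMI (36.2% in aPD-1, 36.9% in IgG) was 20.1% and 20.1% at a floor and depth of 2000 UMIs, and 62.5% and 69.7% with no thinning. The 2 libraries limit every comparison to a description, and Ciita is limited by its 34 and 12 UMIs.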
